A study of Mus musculus with 26 samples.

Results

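The 10 iron-handling genes described here were followed through macrophages of mouse mammary tumours, once in their total mRNA and once in the mRNA bound by 3 or more ribosomes. They are the ferritin chains Fth1 and Ftl1, the ferritin receptor Ncoa4, the iron exporter Slc40a1 (ferroportin), the transferrin receptor Tfrc, the metal transporters Slc11a1 and Slc11a2, the iron regulatory proteins Aco1 and Ireb2, and haem oxygenase Hmox1. The members were taken as the rows that carry these symbols exactly. All 10 were found among 19549 gene rows, and all 10 passed the filter on low counts in every comparison. The members were selected on measured values of these libraries, since Slc40a1 and Ncoa4 had already been named for their difference in total mRNA between large and small tumours. That comparison is therefore given as a description with no test.

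The tumours grew from PyMT cells, which carry the polyomavirus middle T antigen, injected into a mammary gland of female FVB mice aged 5 to 7 weeks. No allele or drug that would set the groups apart is named in the labels, and the hosts differ in how heavy the tumour had become when it was removed. There were 8 small tumours of 467 to 841.8 mg (5 in experimental batch 1 and 3 in batch 2) and 5 large tumours of 1504 to 2245 mg (2 in batch 1 and 3 in batch 2). Macrophages were sorted as CD11b+ F4/80+ Ly6G- cells in the presence of cycloheximide, which holds ribosomes on their mRNA. About 10% of the cells gave the total mRNA library, and the rest were lysed and run on a sucrose gradient to give the polysome library of the same tumour. A bulk library of this kind averages over every cell in the gate, and a model of injected cells in a single mouse strain is all that is represented.

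Ferritin is a shell of heavy chains, which oxidise iron, and light chains, which help it to settle inside. When iron is needed, Ncoa4 carries ferritin to the lysosome, Hmox1 opens haem and frees its iron, and Slc40a1 is the route by which iron leaves the cell, which macrophages use when they recycle iron from ingested red cells. Aco1 and Ireb2 bind a hairpin in mRNA, the iron-responsive element, when iron is low. At the 5′ end of an mRNA the bound protein holds back the start of translation, and at the 3′ end it protects the mRNA from decay.

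The hairpin is shown because it is the sequence through which Aco1 and Ireb2 proteins are known to act on the mRNAs that carry it. The search took an unpaired C, 5 bases of stem, the loop CAGTGN whose last base is not G, and 5 bases that pair with the first 5 (G with T allowed), on the sense strand of annotated transcripts (GRCm38, which is mm10, GENCODE vM21). It found 1 site in the 5′ UTR of 3 members and 4 sites in the 3′ UTR of Tfrc. Each site is printed as 29 bases, 5′ to 3′ on the gene's strand, and the capitals mark the unpaired C and the loop.
Slc40a1, 5′ UTR, minus strand, chr1:45925465-45925493: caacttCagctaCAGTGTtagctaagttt
Ftl1, 5′ UTR, minus strand, chr7:45459779-45459807: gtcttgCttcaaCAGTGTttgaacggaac
Fth1, 5′ UTR, plus strand, chr19:9982732-9982760: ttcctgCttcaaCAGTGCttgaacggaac
Tfrc, 3′ UTR, plus strand, chr16:32631219-32631247: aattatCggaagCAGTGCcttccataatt
Tfrc, 3′ UTR, plus strand, chr16:32631598-32631626: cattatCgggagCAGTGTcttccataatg
Tfrc, 3′ UTR, plus strand, chr16:32631663-32631691: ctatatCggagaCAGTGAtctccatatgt
Tfrc, 3′ UTR, plus strand, chr16:32631710-32631738: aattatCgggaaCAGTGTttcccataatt
The same pattern was present in the 5′ UTR of 23 of 20899 annotated genes (0.11%) and in the 3′ UTR of 100 of 21685 (0.461%). All of these sites are exonic, and a match is a match of letters only. In the same annotation the genes themselves span chr1:45908068-45926523 (Slc40a1), chr14:32159865-32179855 (Ncoa4), chr19:9980598-9985098 (Fth1), chr7:45457944-45459884 (Ftl1), chr16:32608920-32632794 (Tfrc) and chr8:75093621-75100589 (Hmox1). Aco1 lies at chr4:40143081-40198338, Ireb2 at chr9:54863789-54912530, Slc11a1 at chr1:74375195-74386062 and Slc11a2 at chr15:100387898-100425072. The pattern allows no bulge or mismatch within its 5 pairs, so it can miss elements of another shape. A member without a match may still carry an element. The members that this pattern did not find are described by their values alone.

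Total mRNA libraries held 18018519 to 55609113 counts and polysome libraries 7034173 to 28257436, and the 10 genes took 1.17 to 3.20% of the former and 0.305 to 1.65% of the latter. Levels are CPM, the counts of a gene as a share of its library's counts after TMM scaling of library size. No pair of libraries among 325 held identical counts. Among the total mRNA libraries, those of small replicate 7, small replicate 6 and large replicate 3, all of batch 2, were least like the rest, with median correlations of log2 CPM of 0.919, 0.946 and 0.947 to the other 12, where the remaining libraries had 0.949 to 0.967. The polysome library of small replicate 7 was also the lowest of its kind at 0.888. Of these tumours, small replicate 6 and large replicate 3 lay only just below the remaining total mRNA libraries. The 3 tumours also had the lowest log2 ratios of Fth1 to Ftl1 counts in total mRNA. These were -3.31 in small replicate 6, -3.38 in small replicate 7 and -2.76 in large replicate 3, where the others were at -1.05 to -0.14. Leaving the 3 out therefore also removes extreme values of members. Results that turn on these tumours are given with and without them. Macrophage markers (12 of 12 listed genes in the table, among them Csf1r, Adgre1 and C1qa) summed to 41942 to 194396 CPM in total mRNA. Small replicate 7 had the lowest of these sums. On polysomes it was at 6548 CPM, where the other tumours were at 21063 to 138252 CPM. Of 13 erythroid markers 6 were in the table, and they summed to at most 12.8 CPM in any library.

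Compared per kilobase of annotated exon, which allows genes to be set against each other, ferritin stood far above the rest. Total Ftl1 was at 13847 ± 9986 CPM per kb (SD, n = 13) and total Fth1 at 3270 ± 1353, and Ftl1 exceeded Fth1 in 13 of 13 tumours. Next came Hmox1 at 147.7 ± 55.3, Slc11a1 at 103.1 ± 66.6, Ncoa4 at 59.2 ± 28.9, Aco1 at 18.96 ± 11.72, Slc40a1 at 10.74 ± 11.97, Slc11a2 at 5.43 ± 1.05, Ireb2 at 3.79 ± 2.55 and Tfrc at 1.26 ± 0.80. Some neighbours in this order were not separated beyond their spread: Hmox1 exceeded Slc11a1 in 8 of 13 tumours, Aco1 exceeded Slc40a1 in 8 and Slc40a1 exceeded Slc11a2 in 8. On polysomes the first 5 genes kept that order, with Ftl1 at 6794 ± 3979 CPM per kb and Fth1 at 913.1 ± 828.8. The lower part of the polysome order changed: Slc40a1 (12.5 ± 13.5), Aco1 (10.7 ± 5.6), Ireb2 (8.04 ± 3.46) and Slc11a2 (6.86 ± 2.69) lay within each other's spread, and Tfrc was again last at 1.78 ± 1.76. The least counted member was Tfrc, with 18 counts in its lowest library.

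**Figure D1:**
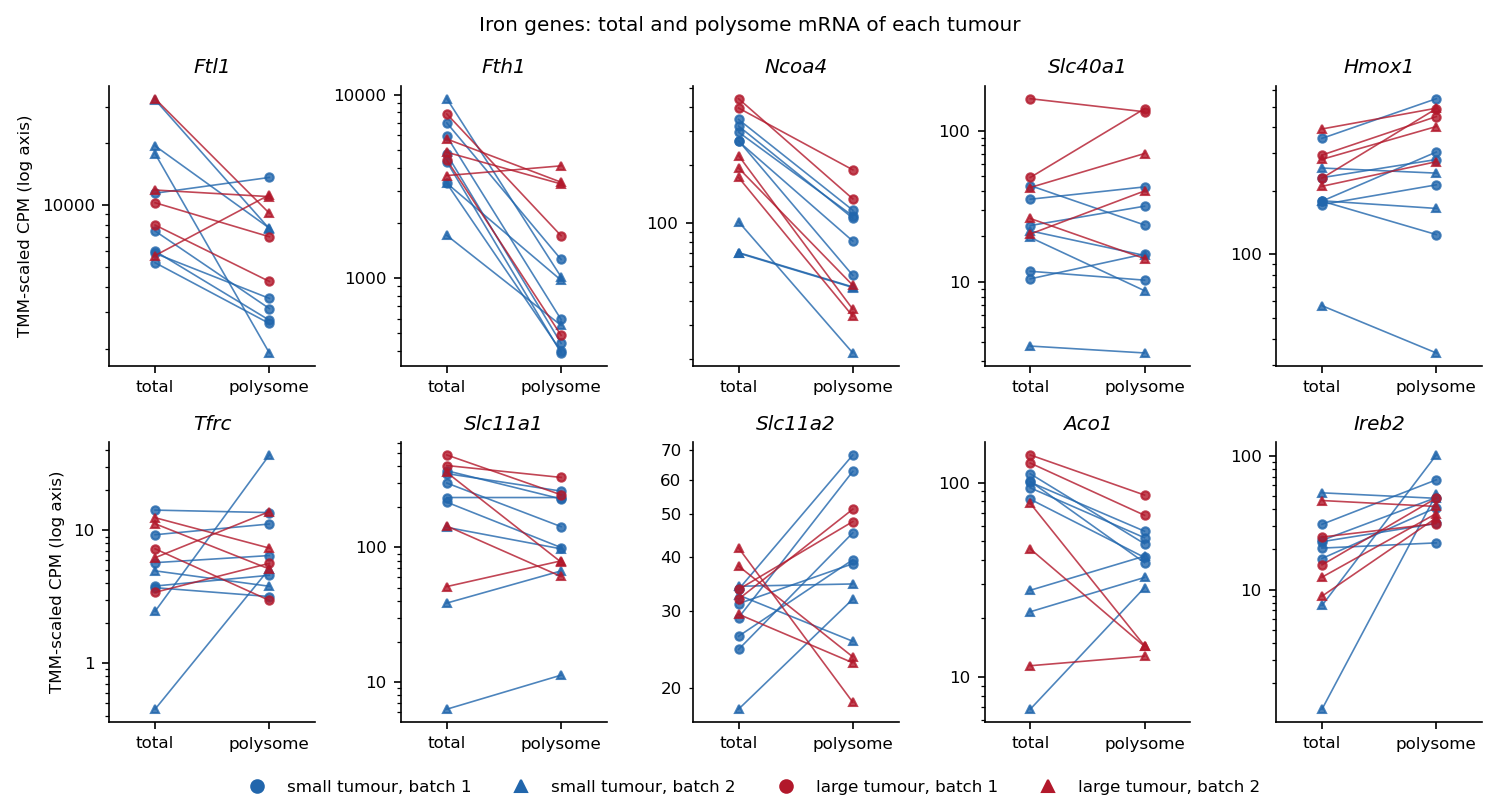
Level of each iron gene in total and polysome mRNA of the 13 tumours, in TMM-scaled CPM on a log axis; a line joins both libraries of a tumour, colour gives the size class and symbol the batch. All 13 Ncoa4 lines and 12 of 13 Fth1 lines go down from total to polysome, while Slc40a1 lines go both ways.

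The question of which of these mRNAs were held off or engaged by ribosomes was put by comparing polysome with total mRNA of the same tumour. Fth1 and Ncoa4 were the members most depleted from polysomes, Ftl1, Aco1 and Slc11a1 were depleted less, and Ireb2 was the 1 member enriched. The other 4 members, Slc40a1, Tfrc, Hmox1 and Slc11a2, did not pass the test. So 1 of 10 members was higher and 5 were lower at an adjusted p of 0.05 (edgeR's quasi-likelihood test with the tumour as a block), where 22.6% of the 12109 genes tested were higher and 34% lower. The median log2 fold change was -0.22 over the members and -0.34 over all genes tested. Which values led to the choice of the members other than Slc40a1 and Ncoa4 is not recorded, so these tests are no independent support. CPM are shares of a library, so a lower value means fewer reads relative to the other mRNAs of that library, not fewer molecules.

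Fth1, the heavy chain, had total mRNA levels of 3282, 5921, 4738, 4308 and 7019 CPM in small tumours of batch 1, of 3289, 1708 and 9506 CPM in those of batch 2, of 7852 and 4408 CPM in large tumours of batch 1 and of 4852, 5731 and 3621 CPM in those of batch 2. In the same order its polysome levels were 398, 594, 440, 390 and 1263 CPM, then 973, 552 and 1014 CPM, then 1701 and 487 CPM, and then 3260, 3331 and 4091 CPM. The ranges of the total levels thus overlapped between the groups, widest in small tumours of batch 2, and the polysome levels of large tumours of batch 2 stood above every other. The polysome level was below the total level in 12 of 13 tumours, the exception being large replicate 5. The fitted log2 fold change was -2.03 ± 0.20 (SE), a 4.08-fold lower share (adjusted p = 9.8e-09 by edgeR), and the call held under each of 23 alternatives (range -2.86 to -1.27).

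The depletion of Fth1 was smaller in batch 2. Polysome minus total log2 CPM averaged -3.02 ± 0.49 (SD, n = 7) in batch 1 and -1.30 ± 1.18 (n = 6) in batch 2. The difference between batches was 1.48 ± 0.39 (SE; adjusted p = 0.0103 by edgeR), and Fth1 was the 1 member called in that comparison, in which 10.5% of genes were higher and 6.95% lower in batch 2. Without small replicates 6 and 7 and large replicate 3 it was 1.28 ± 0.51 (adjusted p = 0.136), and without the tumour as a block it was 1.12 (adjusted p = 0.208). Within each batch the depletion passed the test on its own, at -2.86 ± 0.24 in batch 1 (adjusted p = 2.7e-08) and -1.27 ± 0.31 in batch 2 (adjusted p = 0.00779, edgeR).

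Ftl1, the light chain, ranged in total mRNA from 5238 through a median of 7471 to 11410 CPM in the 7 tumours of batch 1 and from 5674 through 18583 to 32906 CPM in the 6 of batch 2. Its polysome levels ran from 2651 through 3511 to 13616 CPM in batch 1 and from 1905 through 8415 to 11202 CPM in batch 2. The 2 highest total values, 32906 and 32530 CPM, belong to large replicate 3 and small replicate 6. Its log2 fold change was -0.92 ± 0.24 (adjusted p = 0.00249 by edgeR), and polysome exceeded total in small replicate 5 and large replicate 5. Without the 3 tumours that stand apart it was -0.37 ± 0.22 (adjusted p = 0.174), and with DESeq2 it was -0.85 (adjusted p = 0.103). How reads shared with the processed ferritin pseudogenes were counted is not given in the sources used here, which bears on the levels of both chains.

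The ferritin chains carry almost the same hairpin sequence, shown above, yet their balance differed between total and polysome mRNA. The log2 ratio of Fth1 to Ftl1 counts averaged -1.22 ± 1.14 (SD, n = 13) in total mRNA and -2.45 ± 0.69 on polysomes. In batch 1 the ratio fell in 7 of 7 tumours, by between 1.66 and 2.74 on the log2 scale. In batch 2 the shifts were 0.33, 1.59, -1.90, 1.28, -0.68 and -0.81, the rises being those of small replicates 6 and 7 and large replicate 3. Total mRNA ratios were lowest in those same tumours, at -3.31, -3.38 and -2.76. These pairings of genes were chosen after their values were seen and carry no test.

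Ncoa4, which delivers ferritin to the lysosome, had total levels of 267, 265, 343, 295 and 318 CPM in small tumours of batch 1, of 70.7, 102 and 70.3 CPM in those of batch 2, of 439 and 393 CPM in large tumours of batch 1, and of 193, 224 and 173 CPM in those of batch 2. Its polysome levels in the same order were 53.9, 81.0, 117, 109 and 106 CPM, then 47.0, 21.5 and 46.7 CPM, then 134 and 189 CPM, and then 47.9, 36.1 and 33.2 CPM. Batch 1 lay above batch 2 in both kinds of library. Polysome was below total in 13 of 13 tumours, by -2.63 to -0.59 on the log2 scale. The fitted log2 fold change was -1.73 ± 0.20, a 3.32-fold lower share (adjusted p = 9.2e-08 by edgeR), with a range of -1.86 to -1.49 over 23 alternatives that all kept the call. The difference between batches was -0.03 (95% interval -0.83 to 0.78).

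Slc40a1, the exporter, carries the hairpin in its 5′ UTR as the ferritin chains do. Its total levels were 11.8, 10.5, 35.2, 23.6 and 43.3 CPM in small tumours of batch 1, 21.8, 19.7 and 3.77 CPM in those of batch 2, 163 and 49.0 CPM in large tumours of batch 1, and 20.7, 26.3 and 42.1 CPM in those of batch 2. On polysomes it was at 10.3, 15.3, 42.5, 31.7 and 23.8 CPM, then 14.96, 8.75 and 3.39 CPM, then 133 and 140 CPM, and then 39.9, 14.3 and 70.6 CPM. Polysome exceeded total in 6 of 13 tumours and fell below it in 7. The log2 fold change was 0.10 ± 0.22 (95% interval -0.36 to 0.56; adjusted p = 0.731 by edgeR). It was -0.15 in batch 2 alone and 0.38 in batch 1 alone, with no call under any of 23 alternatives. The difference from the ferritin chains was not tested, and without the 3 tumours that stand apart Slc40a1 was at 0.14 and Ftl1 at -0.37.

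**Figure D2:**
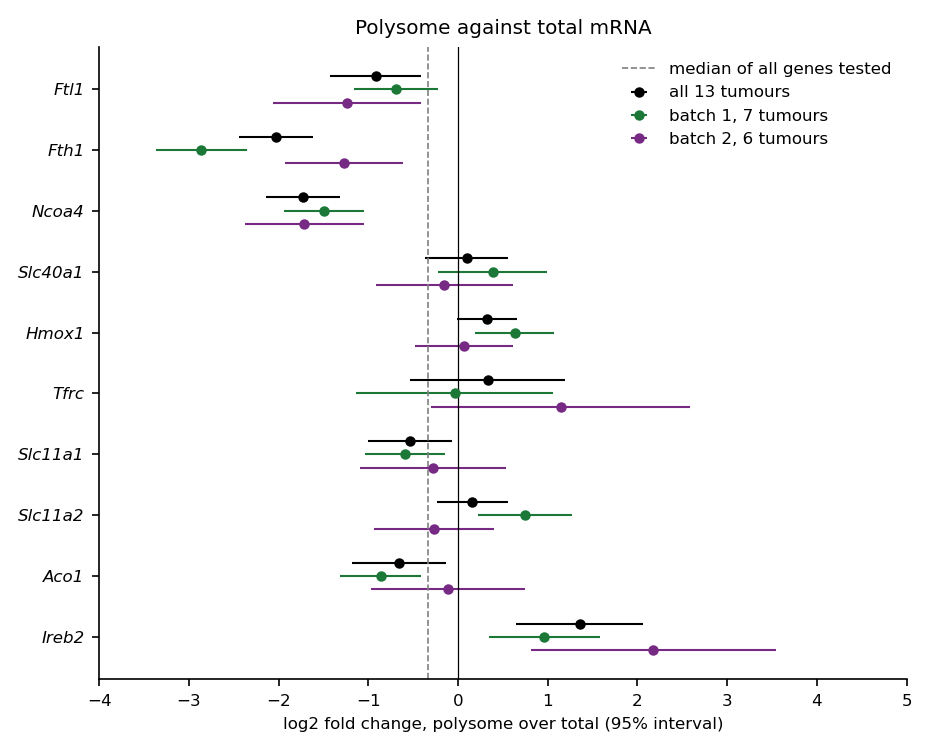
Log2 fold change of polysome over total mRNA for each iron gene with its 95% interval, fitted on all 13 tumours (black), on batch 1 (green) and on batch 2 (purple). Fth1 and Ncoa4 lie below the dashed median of all genes tested (-0.34) in each fit, Ireb2 lies above 0 in each, and the Slc40a1 intervals include 0.

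The mRNAs of the iron regulatory proteins had fitted values of opposite sign over the 13 tumours. Aco1, which is an aconitase when it holds an iron-sulphur cluster and binds RNA when it does not, ranged in total mRNA from 82.0 through 101 to 139 CPM in batch 1 and from 6.83 through 24.8 to 78.1 CPM in batch 2. Its polysome levels were 38.7 to 86.2 CPM in batch 1 and 12.8 to 41.8 CPM in batch 2. Its log2 fold change was -0.66 ± 0.26 (adjusted p = 0.0317 by edgeR). In batch 1 it was lower on polysomes in all 7 tumours (-0.86 ± 0.22, adjusted p = 0.00253), and in batch 2 alone it was -0.12 ± 0.40 (adjusted p = 0.853, edgeR). In batch 2 the polysome level of Aco1 exceeded the total level in 4 of 6 tumours, and that of Ireb2 did so in 4 of 6 too. Aco1 no longer passed when large replicate 4 (-0.37, adjusted p = 0.199) or large replicate 5 (-0.46, adjusted p = 0.149) was left out, and missed by little in 3 further alternatives (adjusted p of 0.0515 to 0.0544). Without the 3 tumours that stand apart the value was -1.02 ± 0.24 (adjusted p = 0.00132).

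Ireb2, whose protein is removed by a ubiquitin ligase when iron is plentiful, was at 15.3 through 22.8 to 30.8 CPM in total mRNA of batch 1 and at 1.28 through 10.7 to 52.9 CPM in batch 2. Polysome levels were 22.4 through 41.0 to 66.1 CPM in batch 1 and 34.4 through 45.0 to 101 CPM in batch 2. The lowest total value, 1.28 CPM, and the highest polysome value, 101 CPM, came from small replicates 6 and 7. The log2 fold change was 1.36 ± 0.34, a 2.56-fold higher share (adjusted p = 0.00158 by edgeR), and polysome exceeded total in 11 of 13 tumours. The call held under each of 23 alternatives, and without the 3 tumours that stand apart the value was 0.73 ± 0.26 (adjusted p = 0.0209). The log2 ratio of Aco1 to Ireb2 counts moved from 1.70 ± 1.46 (SD, n = 13) in total mRNA to -0.29 ± 1.02 on polysomes and fell in 12 of 13 tumours, small replicate 8 being the exception.

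**Figure D3:**
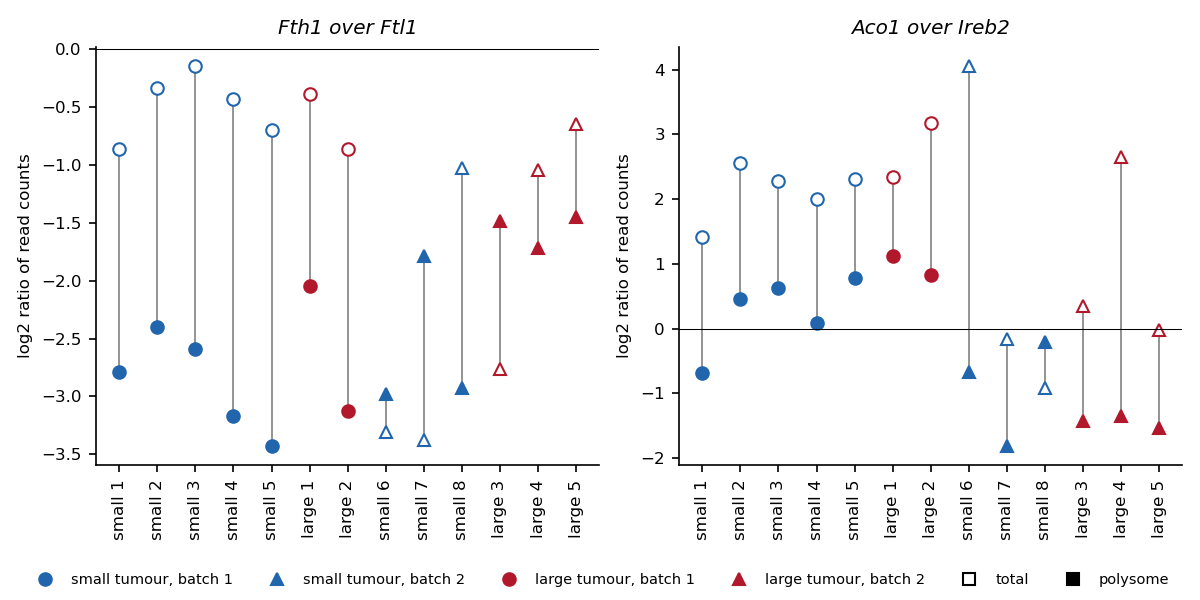
Log2 ratio of read counts of Fth1 to Ftl1 (left) and of Aco1 to Ireb2 (right) in each tumour, open symbols for total and filled for polysome mRNA, batch 1 tumours first. The Fth1 to Ftl1 ratio is lower on polysomes in all 7 tumours of batch 1 and in 3 of 6 of batch 2, and the Aco1 to Ireb2 ratio in 12 of 13 tumours.

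Among the importers, Tfrc, which takes up transferrin-bound iron, was scarce. Its total levels ranged from 3.43 through 5.73 to 14.2 CPM in batch 1 and from 0.452 through 5.60 to 12.5 CPM in batch 2, and its polysome levels from 2.97 through 5.66 to 13.6 CPM and from 3.80 through 6.26 to 37.0 CPM. The log2 fold change was 0.33 ± 0.42 (95% interval -0.53 to 1.19; adjusted p = 0.515 by edgeR). It was -0.32 without the 3 tumours that stand apart, of which small replicates 6 and 7 gave polysome minus total differences of 3.39 and 3.89 on the log2 scale. Both tumours had the lowest total levels of Tfrc, and no shift was called over the 13 tumours.

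Slc11a1 (Nramp1) moves metal out of the phagosome and is a macrophage gene. Its total levels were 217 through 354 to 487 CPM in batch 1 and 6.29 through 96.2 to 361 CPM in batch 2, and its polysome levels 99.9 through 235 to 331 CPM and 11.3 through 72.4 to 97.7 CPM. Small replicate 7 gave the lowest value in both kinds of library. The log2 fold change was -0.54 ± 0.23 (adjusted p = 0.0456 by edgeR). The call was lost in 14 of 23 alternatives, with adjusted p between 0.0556 and 0.615, and without the 3 tumours that stand apart the value was -0.92 ± 0.20 (adjusted p = 0.000490).

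Slc11a2 (DMT1), which brings iron across the endosomal and plasma membrane, was the most even member in total mRNA, at 24.5 through 31.2 to 33.7 CPM in batch 1 and 17.9 through 33.4 to 41.9 CPM in batch 2. On polysomes it was at 38.5 through 48.1 to 68.3 CPM in batch 1 and 18.6 through 24.6 to 34.6 CPM in batch 2, so that the batches did not overlap there. The log2 fold change was 0.16 ± 0.19 (95% interval -0.24 to 0.56; adjusted p = 0.493 by edgeR). Batch 1 alone gave 0.75 ± 0.25 (adjusted p = 0.0174), with all 7 tumours above 0, and batch 2 alone gave -0.27 ± 0.31 (adjusted p = 0.545). The difference between batches was -0.90 ± 0.39 and did not pass the test in edgeR (adjusted p = 0.111), while DESeq2 called it (-1.01, adjusted p = 0.0192).

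Hmox1 was at 172 through 229 to 354 CPM in total mRNA of batch 1 and at 57.2 through 233 to 392 CPM in batch 2, and on polysomes at 124 through 305 to 545 CPM and at 34.2 through 258 to 491 CPM. Its log2 fold change was 0.32 ± 0.16 (95% interval -0.02 to 0.66; adjusted p = 0.098 by edgeR). It passed in 5 of 23 alternatives, among them batch 1 alone (0.63 ± 0.21, adjusted p = 0.0183), DESeq2 (0.39, adjusted p = 0.0137), the fit without small replicate 7 (0.42, adjusted p = 0.0363) and the fit without the 3 tumours that stand apart (0.45, adjusted p = 0.0366). In batch 2 alone it was 0.07 ± 0.26 (adjusted p = 0.866).

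The wider iron pathway was read from 8 lists of genes. The table held 88 of the listed genes, of which 80 were tested for polysome against total mRNA, and 22 were higher and 28 lower, with a median log2 fold change of -0.26. Over all genes tested 22.6% were higher and 34% lower, with a median of -0.34, and the counts of the wider lists lie near these shares. These values are means over both batches. For the difference between batches, 10 of the 80 were higher and 8 lower in batch 2, beside 10.5% and 6.95% of all genes tested. In the list of uptake and reduction 2 of 12 were higher and 4 lower. Transferrin itself (Trf), an abundant transcript here at 2709 ± 1002 CPM of total mRNA (SD, n = 13), was depleted by -1.91 ± 0.20. The lysosomal channel Mcoln1 (1.30 ± 0.20) and the importer Slc39a14 (1.29 ± 0.20) were enriched. These values had adjusted p of at most 1e-05 by edgeR. Both enrichments were smaller in batch 2, by -2.60 ± 0.40 for Mcoln1 (adjusted p = 0.000111) and -1.31 ± 0.40 for Slc39a14 (adjusted p = 0.0242, edgeR). In the list of export and its hormone, 4 of 9 genes in the table were tested, and Cp, Heph and Hamp were not among them. Of these 4, 3 were higher. They were the bone morphogenetic protein receptors Bmpr2 (1.43 ± 0.27) and Bmpr1a (1.83 ± 0.47) and their mediator Smad4 (1.47 ± 0.28). Bmpr1a was scarce, at 1.62 ± 1.23 CPM of total mRNA (SD, n = 13). Bmpr2 was higher in batch 2, by 1.96 ± 0.54 (adjusted p = 0.0127 by edgeR).

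Among iron chaperones and sensing factors, 3 of 8 were higher and 3 lower. Pcbp1, a chaperone that hands iron to ferritin, had the highest of these values at 2.78 ± 0.26 (212 ± 394 CPM of total mRNA, uneven between tumours), against -2.44 ± 0.21 for the glutaredoxin Glrx3 and -2.57 ± 0.23 for Cul1, the scaffold of the ligase that removes Ireb2 protein. Of 3 tested genes on the list of other hairpin mRNAs, Cdc14a was lower (-2.40 ± 0.61). In mitochondrial iron-sulphur assembly 7 of 19 were higher and 8 lower, with the carrier Slc25a28 at 3.37 ± 0.30, Isca1 at -3.30 ± 0.32 and the chaperone Hspa9 at -2.66 ± 0.22. All 5 called genes of haem synthesis (10 tested) were lower, with Urod at -1.18 ± 0.20, the first enzyme Alas1 at -1.24 ± 0.27 and the last, Fech, at -0.89 ± 0.20. Of 7 genes of haem uptake and breakdown, Lrp1, the receptor for haemopexin-bound haem, was higher (1.65 ± 0.25) and Pgrmc1 (-2.75 ± 0.23) and the exporter Abcg2 (-1.29 ± 0.35) were lower. Of 17 genes around Hmox1's regulators 6 were higher and 5 lower, with its repressor Bach1 at 1.39 ± 0.21, Maf at 2.20 ± 0.18 and Prdx1 at -1.01 ± 0.18. Some of the named genes differed between batches. Batch 2 was higher for Glrx3 (1.72 ± 0.41), Isca1 (2.72 ± 0.59) and Pgrmc1 (2.27 ± 0.43), and lower for Lrp1 (-2.17 ± 0.49). Adjusted p of these differences was 0.000651 to 0.00453 by edgeR.

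Whether these mRNAs differed with tumour size was first described in total mRNA. Slc40a1 averaged 21.2 ± 13.1 CPM (SD, n = 8) in small and 60.2 ± 58.4 CPM (n = 5) in large tumours, a log2 fold change of 1.52 ± 0.47 (SE) that was 0.96 without large replicate 1 and 2.40 without the 3 tumours that stand apart. In 33 of 40 pairings of a large with a small tumour the large one was higher, and the ranges of the groups overlapped. Ncoa4 differed by 0.85 ± 0.22, at 0.45 in batch 1 and 1.26 in batch 2, and within each batch every large tumour exceeded every small one. Without the batch term it was 0.36, and batch 1, where levels were higher, held 5 of 8 small and 2 of 5 large tumours. Slc40a1 and Ncoa4 had been named for this very comparison, and the share of all genes without overlap was not counted. The other log2 fold changes were 1.04 ± 0.58 for Slc11a1, 0.81 ± 0.67 for Tfrc, 0.80 ± 0.41 for Aco1, 0.50 ± 0.34 for Hmox1, 0.22 ± 0.21 for Slc11a2, 0.07 ± 0.38 for Fth1, -0.08 ± 0.65 for Ireb2 and -0.11 ± 0.40 for Ftl1. In such bulk samples fewer cells of a type and less RNA per cell cannot be told apart.

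On polysomes no member passed the test between large and small tumours. The call was made for 0% of the 10933 genes tested in either direction (edgeR, 1362 at an unadjusted p under 0.05, with 147 called by DESeq2 and 0 by limma voom). These polysome libraries come from the same tumours, and whether their values had a part in choosing the members is not recorded, so these p-values are no independent support. Slc40a1 had the second lowest p of all genes at a log2 fold change of 2.39 ± 0.42 (adjusted p = 0.0772), or 5.23 times the level (95% interval 2.87 to 9.54). Its values were 79.6 ± 55.7 CPM (SD, n = 5) in large and 18.8 ± 13.0 CPM (n = 8) in small tumours, and the values printed above show that large tumours were higher without overlap in batch 1 and overlapped in batch 2. The log2 fold change was 2.44 in batch 1 and 2.21 in batch 2. It passed with DESeq2 (adjusted p = 0.000539), with no filter on low counts (0.0135), with log2 tumour weight in place of the classes (0.0481) and without small replicate 5 (0.0335), and adjusted p ranged up to 0.711 over 24 alternatives.

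Markers of resident-type macrophages such as Lyve1, Folr2, Timd4 and Cd163 were measured beside Slc40a1. All 10 listed genes were in the table, and none was at 0 throughout a group. All 10 had a polysome fold change above 0 in large tumours (median 1.10), with 0 called. Over all genes tested 5399 of 10933 were above 0 (median -0.01). Their summed polysome level was 248 through 1395 to 6097 CPM in small and 500 through 4096 to 6357 CPM in large tumours. In total mRNA too all 10 resident-type markers were above 0 in large tumours (median log2 fold change 0.85), where 5461 of 11671 genes were (median -0.03). Their summed total levels were 270 through 1351 to 4629 CPM in small and 756 through 2927 to 3776 CPM in large tumours. Large replicate 1, which had the highest total Slc40a1 level at 163 CPM, had a summed total level of 756 CPM, the lowest of the large tumours. Markers of fibroblasts went the other way: 1 of 11 tested had a polysome fold change above 0 (median -1.75) and 0 of 11 a total one (median -1.26), and their summed polysome level was 871 through 2571 to 6213 CPM in small and 496 through 920 to 2084 CPM in large tumours. Of mammary epithelial markers 0 of 10 tested were above 0 on polysomes (median -1.08) and 1 of 10 in total mRNA (median -0.66). The medians of their summed levels were not lower in large tumours. On polysomes the sums were 39.0 through 175 to 1178 CPM in small and 111 through 209 to 422 CPM in large tumours. In total mRNA they were 55.4 through 288 to 4173 CPM in small and 103 through 305 to 765 CPM in large tumours. Of neutrophil markers 4 of 4 tested were above 0 on polysomes (median 1.29). Their summed polysome levels were 13.8 through 159 to 454 CPM in small and 80.1 through 166 to 264 CPM in large tumours. Of the general macrophage markers 9 of 12 were above 0 on polysomes (median 0.57) and 6 of 12 in total mRNA (median 0.01). Of monocyte markers 2 of 7 tested were above 0 on polysomes (median -0.73) and 6 of 8 in total mRNA (median 0.22). The part of these lists in the Slc40a1 values was not tested.

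Fth1 had the next highest polysome fold change with size, at 1.54 ± 0.43 (adjusted p = 0.18 by edgeR), from 703 ± 333 CPM (SD, n = 8) in small to 2574 ± 1454 CPM (n = 5) in large tumours. In batch 2 the large tumours, at 3260 to 4091 CPM, lay above all small ones, at 552 to 1014 CPM. In batch 1 they overlapped, with large replicate 2 at 487 CPM within the small range of 390 to 1263 CPM. It passed with DESeq2 (1.51, adjusted p = 0.0132) and without small replicate 5 (1.74, adjusted p = 0.0416), and was 1.14 without the 3 tumours that stand apart (adjusted p = 0.732). Hmox1 followed at 1.11 ± 0.42 (adjusted p = 0.296), with 421 ± 89.6 CPM in large and 239 ± 152 CPM in small tumours, which did not overlap in batch 2 (274 to 491 against 34.2 to 242 CPM) and did in batch 1.

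The remaining polysome fold changes with size did not pass either. They were 0.56 ± 0.49 for Ftl1, 0.49 ± 0.38 for Slc11a1, 0.46 ± 0.29 for Ncoa4, -0.20 ± 0.34 for Aco1, -0.22 ± 0.27 for Slc11a2, -0.40 ± 0.32 for Ireb2 and -0.76 ± 0.62 for Tfrc. Aco1 went opposite ways in the batches: large tumours were at 67.8 and 86.2 CPM against 38.7 to 56.2 CPM for small ones in batch 1, and at 12.8, 14.5 and 14.4 CPM against 28.8 to 41.8 CPM in batch 2. The difference of these effects was not tested. Of the other members, Ftl1 also lay higher without overlap in large tumours of batch 2 (9115 to 11202 against 1905 to 7715 CPM). Ireb2 (34.4 to 41.8 against 48.1 to 101 CPM) and Slc11a2 (18.6 to 23.6 against 25.6 to 34.6 CPM) lay lower there without overlap. Batch 2 held 3 large and 3 small tumours, and batch 1 held 2 large and 5 small ones. The share of all genes without overlap was not counted in either batch. The median log2 fold change with size over the members was 0.47, beside -0.01 over all genes tested.

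**Figure D4:**
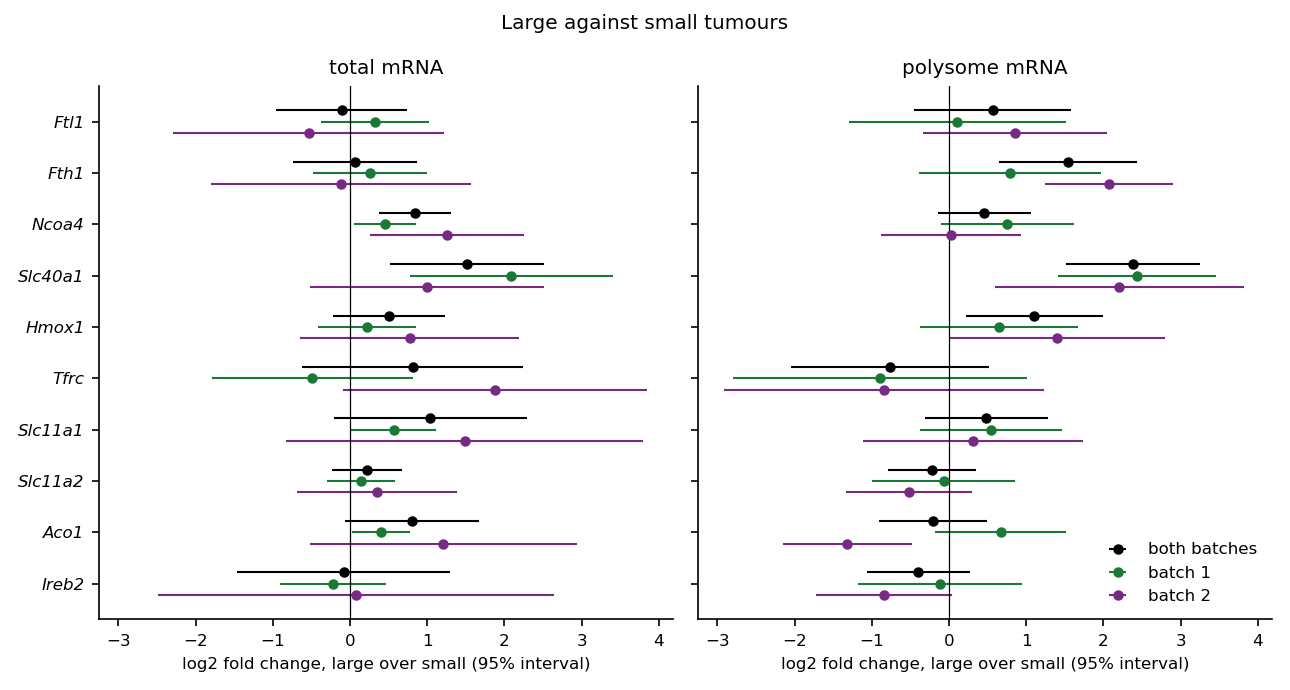
Log2 fold change of large over small tumours in total mRNA (left, no test) and polysome mRNA (right) for each iron gene with its 95% interval, for both batches together (black), batch 1 (green) and batch 2 (purple). Slc40a1 is above 0 in all 6 fits and Aco1 on polysomes lies on opposite sides of 0 in the batches.

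Polysome association, the polysome level set against the total level of the same tumour, was then compared between size classes. No gene was called (0% of 12109 genes in either direction, edgeR, lowest adjusted p of 0.279 and 1385 genes at an unadjusted p under 0.05, with 129 called by DESeq2 and 0 by limma voom). Fth1 had the largest positive value among the members tested here, 1.14 ± 0.40 (adjusted p = 0.328). In batch 2 its polysome minus total difference was -0.57, -0.78 and 0.18 in large and -1.76, -1.63 and -3.23 in small tumours, without overlap, and in batch 1 it was -2.21 and -3.18 against -3.46 to -2.47. Hmox1, Aco1 and Slc11a2 did not overlap in batch 2 either. In large against small tumours Hmox1 was at 0.33 to 0.52 against -0.74 to -0.08. Aco1 was at -2.43 to 0.16 against 0.58 to 2.07, and Slc11a2 at -1.17 to -0.37 against -0.35 to 0.84. The share of all genes without overlap was not counted. The other tested values of association with size were 0.95 ± 0.49 for Ftl1, 0.64 ± 0.33 for Hmox1, -0.55 ± 0.40 for Slc11a2, -0.64 ± 0.46 for Slc11a1, -0.80 ± 0.71 for Ireb2, -1.05 ± 0.52 for Aco1 and -1.51 ± 0.88 for Tfrc, with adjusted p between 0.444 and 0.694 (edgeR). For Slc40a1 and Ncoa4, whose total mRNA helped to choose them, the values of 0.75 ± 0.46 and -0.45 ± 0.40 are a description. Of the wider lists, 0 of 80 genes passed in this comparison, and 0 of 78 in polysome mRNA, where the lowest p was that of Blvrb, a biliverdin and flavin reductase (1.67 ± 0.35, adjusted p = 0.113).

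**Figure D5:**
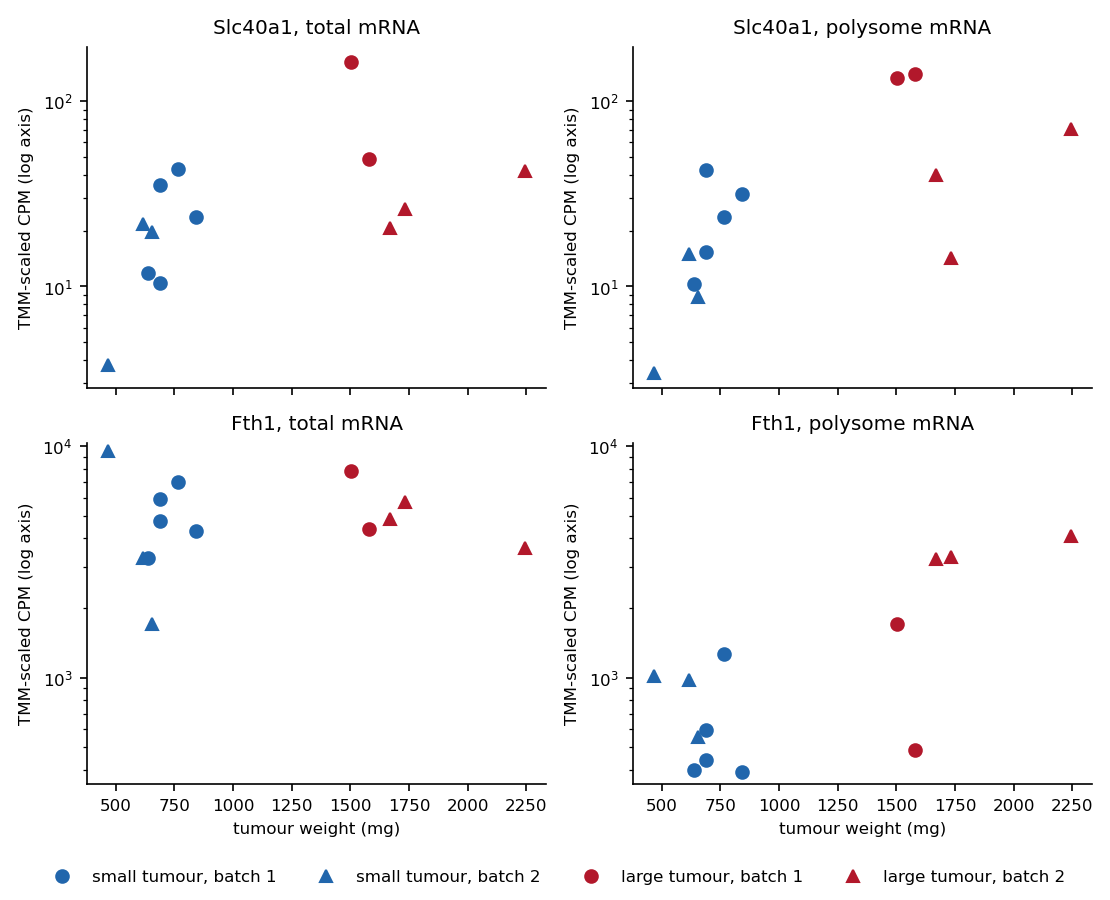
Level of Slc40a1 (top) and Fth1 (bottom) in total (left) and polysome mRNA (right) against tumour weight in mg, in TMM-scaled CPM on a log axis; colour gives the size class and symbol the batch. Total Fth1 of large tumours (3621 to 7852 CPM) lies within the range of small ones (1708 to 9506 CPM), while on polysomes the 3 large tumours of batch 2 (3260 to 4091 CPM) lie above all others.

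The genes most like 4 of the members across the 13 total mRNA libraries were found by Spearman correlation of log2 CPM centred within each batch, among 7812 genes (7813 for Tfrc) with a mean of at least 10 CPM. The libraries share their batch and depth, so the values are a description. Slc40a1 was most like Polr3f (rho = 0.907), followed by Rsf1, Clcn3, Rbm5 and Tmem19 (0.857 to 0.885). Ncoa4 was most like Wdr11 (0.956), followed by Scyl2, Gzf1 and the joined row of Tgoln1 and Tgoln2 (0.923 to 0.940). Fth1 was most like Psap (0.940), which encodes the lysosomal protein prosaposin, followed by Litaf, Ppp1r3b, Siae and Dhdds (0.874 to 0.901). Tfrc was most like Nedd9 (0.956), followed by Ptger2, Reps2, Arhgap12 and Klhl7 (0.901 to 0.945). Between members, Slc40a1 and Ncoa4 had 0.720, Fth1 had 0.731 with Slc11a1 and 0.709 with Hmox1, and Fth1 with Ftl1 had 0.181.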

How the data were processed

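Total and polysome-associated mRNA of 13 tumours was sequenced as 26 SmartSeq2 libraries, per the labels' protocols. The authors deposited raw read counts per gene and a log2 column (TMM-scaled log2 CPM with a constant, for 10472 genes), and the counts were used. HISAT2, HISAT, limma and mm10 are named in the submitters' processing notes, without roles. Neither the counting tool nor its strand setting is named there. Of 19549 rows 830 join several names, none of them a member.

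Counts were scaled by TMM and tested with edgeR 4.0.16 (glmQLFit, robust, and glmQLFTest, filterByExpr) in R 4.3.3 on the whole table, with Benjamini-Hochberg adjustment over all genes tested and a threshold of 0.05. The fit of all 26 libraries held the tumour as a block, RNA source, and its interactions with batch and size class (limit 1000 mg). Size within polysome or total mRNA was fitted with batch as a covariate. The deviations of both libraries of a tumour from their group means correlated by a median of 0.249 (0.0372 at the lowest, n = 13), against -0.0167 between tumours, and the pairing comes from the shared sort. Differences per tumour used a prior count of 1, and count ratios an added count of 1. Alternatives used DESeq2 1.42.0 and limma 3.58.1 among others. Leaving out the 3 tumours together was chosen after seeing the data. The terms of the fit were checked on counts simulated with a fixed dispersion and no outlying tumours. As these data differ from that setting, the check does not bear on the calls reported here. Labels do not say more of replicates than separate tumours.

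Named genes were all members, at most 3 genes of lowest p per wider list, and the 5 most correlated genes, of which 1 is not reported here. The members and lists were chosen with earlier results of these data known. Libraries held 7034173 to 55609113 counts without molecular identifiers.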

Additional observations from a re-analysis of the deposited data

Results flagged for a closer look

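Of 60 groups of 4 to 10 libraries checked for a single library far from the rest, 2 held one, and chance alone gives about 1 in 20. Total Hmox1 in small replicate 7 was 57.2 CPM, where the other small tumours were at 172 to 354 CPM. Polysome Slc11a1 in the same tumour was 11.3 CPM, where the others were at 67.0 to 262 CPM. The polysome depletion of Fth1 differed between batches by 1.48 on the log2 scale, as tested in the report.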

How the results depend on the processing

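Under the alternatives 167 counts of calls stayed within 1.5 times the reported count and 19 did not. Genes called between polysome and total mRNA fell to 3606 in batch 2 alone, from 6857. For the difference between batches, the members called were 2 with DESeq2, 0 with no replicate block and 0 without the 3 tumours that stand apart, 1 to 2 with a single tumour left out, and the genes called were 865 without those 3 and 1385 to 2227 with a single tumour left out. For polysome association with size, 129 genes were called by DESeq2 and 8 with no filter. For polysome mRNA with size, DESeq2 called 2 members and 147 genes, no filter 1 and 3, log2 tumour weight 1 and 1, and leaving out a single tumour 0 to 2 members and 0 to 42 genes (the highest without small replicate 5). Signs that turned belonged to values that were not called. In polysome against total mRNA these were Slc40a1 (-0.15) and Slc11a2 (-0.27) in batch 2 alone, Tfrc in batch 1 alone (-0.039) and without the 3 tumours (-0.32), and Slc40a1 with a single tumour left out (-0.023 without large replicate 2, to 0.28). In the difference between batches they were, without the 3 tumours, Ftl1 (0.39), Tfrc (-0.56), Ireb2 (-0.58) and Slc11a1 (-0.52), and Ncoa4 with a single tumour left out (-0.29 to 0.23). In association with size they were Aco1 (0.28), Ireb2 (0.21) and Slc11a1 (0.046) in batch 1 alone and Ireb2 (0.46) without the 3 tumours, and in polysome mRNA with size Aco1 in batch 1 alone (0.67) and Tfrc with a single tumour left out (-1.07 to 0.011, the latter without small replicate 7). With no replicate block the calls of the Fth1 batch difference (1.12, adjusted p = 0.208) and of Slc11a1 (-0.75, adjusted p = 0.0699, from -0.54) were lost, and no other member changed its call. The cause of these changes was not tested.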
